A study of Mus musculus with 48 samples.

Results

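Per1, Per3, Cry1, Cry2, Ciart and Csnk1e belong to the repressing arm of the circadian clock and to its protein machinery. Each gene was read from the rows of the array table whose platform annotation gave exactly 1 gene symbol, with the highest-mean row kept where a gene had several. Each of the 6 genes had 1 such row, so they make up 6 of the 22180 genes read in this way and 6 of the 17274 genes that passed the filter on low levels and were tested. Cry2 and Csnk1e each had 1 further row shared with another symbol, which was not used. Per2 and Csnk1d lay only on rows shared with other symbols and were not analysed here. The probe sets were 17251527 for Per1, 17433328 for Per3, 17243644 for Cry1, 17388389 for Cry2, 17407934 for Ciart and 17319207 for Csnk1e.

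The samples came from male C57BL/6 mice held under a cycle of 12 h light and 12 h dark. Tissue was collected every 4 h over 2 cycles of 24 h, beginning at Zeitgeber time 11 (ZT, hours after lights on), which gave ZT3, ZT7 and ZT11 in the light and ZT15, ZT19 and ZT23 in the dark. Dissection of coronal slices gave SN/VTA (substantia nigra and ventral tegmental area together), PFC (prefrontal cortex), STR (striatum) and HAB (habenula). Each of the 48 Affymetrix Mouse Gene 2.0 ST arrays carried RNA pooled from 3 mice, with 1 array per tissue and time in each cycle, and all values are log2 levels. The age of the mice is not given in the sources used here, nor whether the tissues of a time came from the same animals. Pools hide the spread between animals, so no p-value below measures that spread, and the number of arrays sets how precise a value can be. Contrasts between groups of arrays are set against variation among pools. In fits of a 24-h curve the spread also holds departures from the curve. In the fit shared by the 4 tissues it also holds differences in daily course between tissues.

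The mammalian clock is a feedback loop. CLOCK and BMAL1, the product of Arntl, bind E-box sequences and switch on the Per and Cry genes, and the PER and CRY proteins gather in complexes that return to the nucleus and shut CLOCK and BMAL1 down. Ciart encodes CHRONO, another repressor that binds BMAL1, and Csnk1e encodes casein kinase 1 epsilon, which phosphorylates PER proteins and so sets how long they last. The loop also runs in most brain regions outside the suprachiasmatic nucleus, which keeps them in step with light.

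Array medians ran from 5.84 to 6.07, and the paired arrays of a tissue and time had a Pearson r between 0.982 and 0.995. Of 16 defining markers, 4 per tissue, 15 were higher on every array of their own tissue than on any other array, among them Slc6a3 in SN/VTA and Drd1 in STR. Neurod6 was the exception, since its lowest level in PFC was 8.72 and its highest level elsewhere was 8.96. Choroid plexus markers, 8 of 8 measured, differed widely between HAB arrays, with list means from 6.94 to 9.05, against 5.80 to 6.18 in PFC. Thalamus markers in HAB ran from 8.85 to 10.37.

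The promoters of the 5 genes that followed time of day are shown because these genes shared a daily course and their windows hold different clock motifs. Each window holds the 250 bases before and 50 bases after a start site annotated by RefSeq in GRCm38.p6, read 5′ to 3′ along the gene, and all 6 genes had an entry. Capitals mark matches, on either strand, to the E-box CACGTG, the E-box variant CACGTT, the D-box TTATGTAA, the core TGACGT of the cyclic AMP response element (CRE) and the core AGGTCA of the element bound by ROR and REV-ERB receptors (RORE). A match on the opposite strand appears as its reverse complement, AACGTG for the variant and TGACCT for the RORE core. None of the 5 motifs overlapped another in these windows. Per1 has 2 annotated starts, and the other 4 genes have 1 each.
Ciart, chr3:95882179-95882478, minus strand: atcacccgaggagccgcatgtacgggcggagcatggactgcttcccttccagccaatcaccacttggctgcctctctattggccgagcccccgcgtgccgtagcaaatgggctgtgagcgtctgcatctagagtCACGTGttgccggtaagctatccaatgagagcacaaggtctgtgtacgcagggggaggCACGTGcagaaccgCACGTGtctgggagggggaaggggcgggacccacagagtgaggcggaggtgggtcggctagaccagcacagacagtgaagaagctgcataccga
Per1 start 1, chr11:69098699-69098998, plus strand: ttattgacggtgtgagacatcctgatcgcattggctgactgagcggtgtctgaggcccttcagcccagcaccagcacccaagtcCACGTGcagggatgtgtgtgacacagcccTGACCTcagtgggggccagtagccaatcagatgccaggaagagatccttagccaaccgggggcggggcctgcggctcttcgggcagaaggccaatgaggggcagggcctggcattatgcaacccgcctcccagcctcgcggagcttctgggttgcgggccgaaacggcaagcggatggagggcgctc
Per1 start 2, chr11:69099902-69100201, plus strand: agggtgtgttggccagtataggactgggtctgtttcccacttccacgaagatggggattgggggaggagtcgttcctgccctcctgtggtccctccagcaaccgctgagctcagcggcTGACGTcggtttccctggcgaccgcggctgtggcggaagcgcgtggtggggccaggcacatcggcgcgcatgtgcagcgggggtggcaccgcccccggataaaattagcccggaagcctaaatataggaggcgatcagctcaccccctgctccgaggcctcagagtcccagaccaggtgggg
Per3, chr4:151044616-151044915, minus strand: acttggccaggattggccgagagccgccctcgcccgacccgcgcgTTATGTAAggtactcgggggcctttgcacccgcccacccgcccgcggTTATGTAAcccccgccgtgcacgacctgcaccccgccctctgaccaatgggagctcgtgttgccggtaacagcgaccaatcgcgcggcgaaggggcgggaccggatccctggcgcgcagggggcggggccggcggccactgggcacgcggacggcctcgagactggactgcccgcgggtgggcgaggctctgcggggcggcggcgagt
Cry1, chr10:85185005-85185304, minus strand: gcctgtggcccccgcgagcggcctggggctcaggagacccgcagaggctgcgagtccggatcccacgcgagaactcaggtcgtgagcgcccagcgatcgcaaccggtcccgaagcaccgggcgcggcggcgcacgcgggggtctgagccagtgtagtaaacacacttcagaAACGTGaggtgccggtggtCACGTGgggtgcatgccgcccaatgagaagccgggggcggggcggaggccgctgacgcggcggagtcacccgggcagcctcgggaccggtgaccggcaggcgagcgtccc
Cry2, chr2:92434020-92434319, minus strand: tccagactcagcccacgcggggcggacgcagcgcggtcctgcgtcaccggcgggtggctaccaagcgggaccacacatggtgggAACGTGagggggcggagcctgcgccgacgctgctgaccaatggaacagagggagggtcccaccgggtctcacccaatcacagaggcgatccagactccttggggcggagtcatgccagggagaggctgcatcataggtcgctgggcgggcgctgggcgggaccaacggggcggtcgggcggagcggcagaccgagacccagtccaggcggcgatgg

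The Ciart window held 3 E-boxes, which began 116, 58 and 44 bases before the start. Among all 32851 windows of this length, 7.15% held at least 1 E-box and 0.0883% held 3 or more. At the first start of Per1 stood 1 E-box, 166 bases before the start, and a RORE core at 137, and at its second start a CRE core at 132. A CRE core was present in 7.51% of all windows and a RORE core in 16.3%. Per3 had no E-box in its window and 2 D-boxes instead, at 205 and 158 bases before the start. A D-box was found in 0.938% of all windows and 2 or more in 0.0213%. Cry1 had 1 E-box at 60 and 1 variant at 79, and Cry2 had 1 variant at 166, a motif held by 4.68% of all windows. The 4 annotated starts of Csnk1e held none of the 5 motifs. Only the exact letters of each motif were searched, so near matches, such as ttatgcaa at the first start of Per1, are not marked. These matches describe letters in the windows and were not tested for binding.

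**Figure D1:**
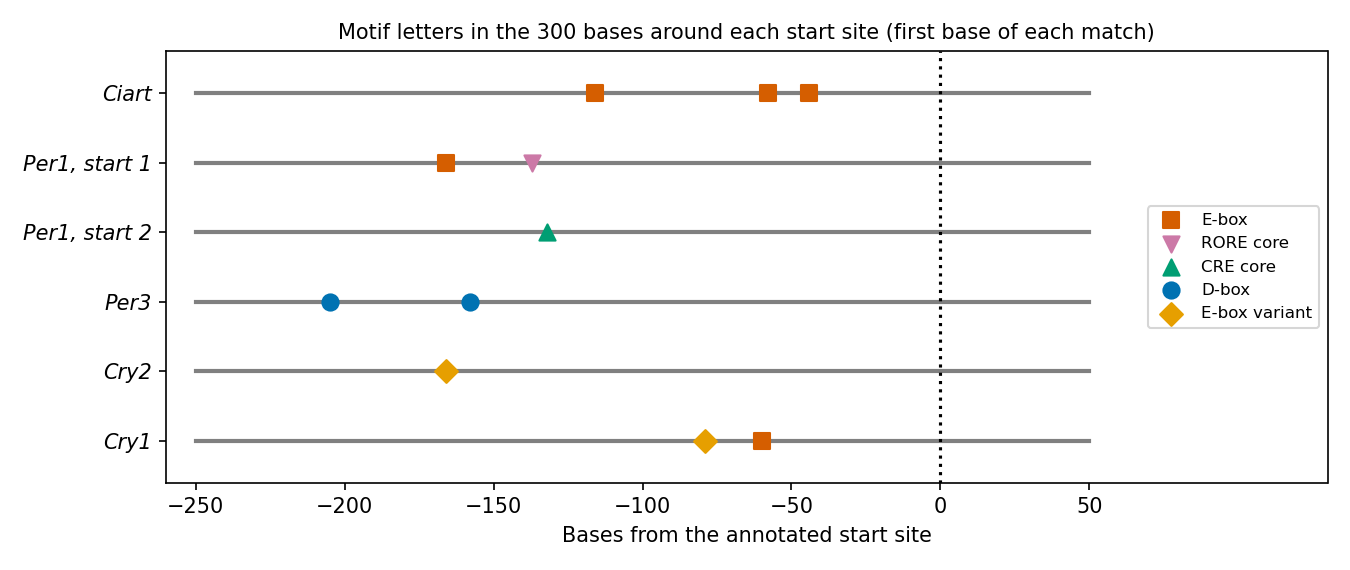
Motif letters around the annotated start sites of the 5 genes with a shared rhythm, with bases from the start on the x axis, 1 line per window and 1 symbol per match. Ciart shows 3 E-boxes between 116 and 44 bases before its start, Per3 shows 2 D-boxes, and Cry1 shows an E-box and a variant side by side.

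Across the 4 tissues, 5 of the 6 genes followed the time of day and Csnk1e did not pass. With the 4 tissues fitted together, Ciart, Per1, Cry2 and Per3 peaked around lights off, and Cry1 peaked some hours into the dark. A cosine curve of 24 h was fitted to all 48 arrays with the tissue means taken out, and its amplitude is the rise of the curve above its mean. The SE given here count every array as independent, so an effect shared by the tissues of a time could make them too small. The fitted peaks came at ZT11.0 ± 0.2 for Ciart, ZT12.4 ± 0.4 for Per1, ZT13.2 ± 0.7 for Cry2, ZT13.4 ± 0.3 for Per3 and ZT16.6 ± 0.5 for Cry1 (SE). The amplitudes were 0.64 ± 0.04 for Ciart, 0.29 ± 0.03 for Per1, 0.29 ± 0.02 for Per3, 0.18 ± 0.03 for Cry1 and 0.12 ± 0.02 for Cry2 (log2, SE), which span 2.43-fold for Ciart down to 1.18-fold for Cry2 between trough and peak. The adjusted p in limma was 1.40e-16 for Ciart, 1.97e-13 for Per3, 1.55e-08 for Per1, 1.33e-05 for Cry1 and 0.00251 for Cry2. Of all genes tested, 5.55% passed in this test. Csnk1e had an amplitude of 0.03 ± 0.02 and an adjusted p of 0.709 in limma. The median amplitude of the 6 genes was 0.23, against 0.04 over all genes tested. In these bulk samples, a lower level can mean fewer cells of a type or less RNA per cell, and these cannot be told apart.

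In the fit shared by the 4 tissues, Cry1 lagged every other rhythmic gene of the set. Its fitted peak came 5.60 h after that of Ciart (95% interval 4.44 to 6.76), 4.26 h after Per1 (2.95 to 5.57), 3.41 h after Cry2 (1.65 to 5.16) and 3.20 h after Per3 (1.99 to 4.41). Of the 10 pairs set side by side, these 4 and 4 others had unadjusted intervals that left out 0. The shared fit counted every array as independent, though the tissues of a collection time may come from the same mice. An effect shared by the tissues of a time could make these intervals too narrow, and they were not recomputed to allow for it. Fitted peaks of Ciart were earlier in the second cycle in each tissue, as given below. In the shared fit Ciart led, and Per1 followed it by 1.34 h (0.54 to 2.14), Cry2 by 2.19 h (0.68 to 3.70) and Per3 by 2.39 h (1.67 to 3.11). Per3 came 1.05 h after Per1 (0.16 to 1.95). The interval of Cry2 minus Per1 was -0.54 to 2.24 h and that of Per3 minus Cry2 was -1.42 to 1.83 h, so the place of Cry2 between these genes is not settled. Cry2 was also the one gene of the 5 whose shared rhythm missed the threshold in a single cycle, with an adjusted p in limma of 0.102 in the first and 0.0875 in the second, and again in the fit to the 12 means over tissues (0.0842). Within single tissues some intervals held 0. Per1 minus Ciart was 1.38 h in PFC (-0.55 to 3.31) and -0.47 h in HAB (-2.10 to 1.17). Cry2 minus Ciart was 0.81 h in SN/VTA (-0.37 to 1.99) and -1.18 h in HAB (-5.34 to 2.97). Cry1 minus Cry2 was 0.18 h in PFC (-2.64 to 2.99) and 3.86 h in STR (-0.32 to 8.04). Cry1 minus Per3 was 2.52 h in HAB (-0.15 to 5.20). The other within-tissue intervals of Ciart or Cry1 left out 0.

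**Figure D2:**
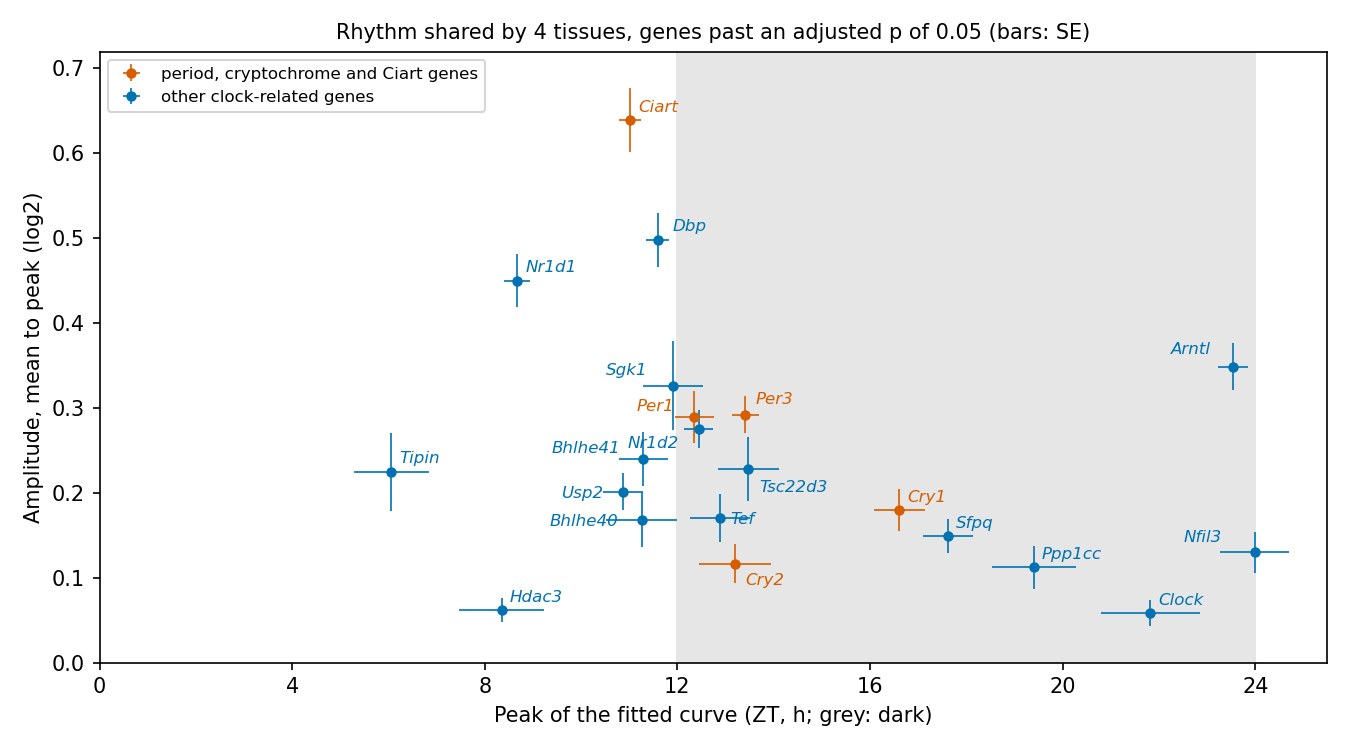
Peak time of the fitted curve (x axis, ZT in h) and amplitude from mean to peak (y axis, log2) for the genes that passed in the fit to 48 arrays, with SE bars; orange marks the members of the repressor set and blue other clock-related genes, and the grey field is the dark. Ciart stands highest at 0.64, Cry1 sits apart from Per1, Per3 and Cry2 in the dark, and Arntl lies at ZT23.5.

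Ciart had the lowest p of all 17274 genes in the shared fit and passed in each tissue on its own. The CHRONO gene lies on the minus strand at chr3:95878500-95882257 in GRCm38.p6. Ciart levels in SN/VTA, with the first cycle before the second, were 7.49 and 7.47 at ZT3, 7.92 and 8.17 at ZT7, 8.53 and 8.42 at ZT11, 8.0 and 7.81 at ZT15, 7.85 and 7.60 at ZT19, and 7.26 and 7.37 at ZT23. Those in PFC were 7.05 and 7.33 at ZT3, 7.57 and 7.99 at ZT7, 8.36 and 8.39 at ZT11, 7.81 and 7.74 at ZT15, 7.14 and 7.21 at ZT19, and 7.05 and 6.91 at ZT23. Both ZT11 arrays were the highest in each tissue, and the lowest mean was that of ZT23. STR arrays of Ciart read 7.41 and 7.80 at ZT3, 8.47 and 8.52 at ZT7, 8.75 and 8.88 at ZT11, 8.36 and 8.33 at ZT15, 7.56 and 7.31 at ZT19, and 7.28 and 7.67 at ZT23. HAB arrays of Ciart read 7.34 and 7.29 at ZT3, 7.96 and 8.21 at ZT7, 8.68 and 8.65 at ZT11, 8.18 and 8.19 at ZT15, 7.58 and 7.39 at ZT19, and 7.64 and 7.32 at ZT23. The ZT11 arrays were again the highest of their tissue, while the lowest mean stood at ZT19 in STR and at ZT3 in HAB. The amplitude was 0.51 ± 0.06 in SN/VTA (adjusted p = 0.0108 in limma), 0.66 ± 0.06 in PFC (9.55e-04), 0.75 ± 0.07 in STR (0.00335) and 0.64 ± 0.08 in HAB (0.0324). Peaks were fitted between ZT10.5 ± 0.4 in STR and ZT11.5 ± 0.4 in HAB. Ciart in HAB passed only without the first ZT23 array or without the second ZT19 array when 1 array was left out, and with each of the other 10 left out its adjusted p lay between 0.0519 and 0.255 in limma. With replicate number as a block it also missed in HAB (0.0682). In SN/VTA it missed without the first ZT11 array (0.0520), without the second ZT11 array (0.0743) and without the first ZT23 array (0.0591).

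The Period genes peaked close to lights off. Per1, which in the suprachiasmatic nucleus is also induced by light and by cyclic AMP signals, lies on the plus strand at chr11:69095108-69109965. Per1 in SN/VTA stood at 8.20 and 8.34 at ZT3, 8.75 and 8.65 at ZT7, 9.21 and 9.13 at ZT11, 8.97 and 8.82 at ZT15, 8.57 and 8.65 at ZT19, and 8.46 and 8.35 at ZT23. In PFC Per1 stood at 8.66 and 8.91 at ZT3, 9.07 and 9.15 at ZT7, 9.48 and 9.66 at ZT11, 9.47 and 9.25 at ZT15, 8.95 and 8.86 at ZT19, and 9.0 and 9.18 at ZT23. Both tissues had their highest Per1 mean at ZT11 and their lowest at ZT3. STR arrays of Per1 gave 9.15 and 9.07 at ZT3, 9.32 and 9.36 at ZT7, 9.62 and 9.85 at ZT11, 9.62 and 9.58 at ZT15, 9.28 and 9.38 at ZT19, and 9.19 and 9.34 at ZT23. HAB arrays of Per1 gave 8.83 and 8.86 at ZT3, 9.12 and 9.25 at ZT7, 9.32 and 9.35 at ZT11, 9.15 and 9.02 at ZT15, 9.0 and 8.87 at ZT19, and 9.12 and 8.97 at ZT23. The swing of the time means was widest in SN/VTA at 0.90 and narrowest in HAB at 0.49. Per1 had an amplitude of 0.41 ± 0.04 in SN/VTA (adjusted p = 0.00907 in limma), while the values of 0.31 ± 0.07 in PFC (0.188), 0.28 ± 0.05 in STR (0.209) and 0.18 ± 0.05 in HAB (0.738) did not pass. The amplitude in SN/VTA minus that in HAB was 0.23 (unadjusted 95% interval 0.08 to 0.37), but the joint test of tissue differences in the Per1 rhythm gave an adjusted p of 0.840 in limma. For Ciart, the amplitude in SN/VTA minus that in STR was -0.24 (-0.44 to -0.04), and the joint test gave 0.919. All other amplitude intervals, over members and tissue pairs, held 0.

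Per3, a Period gene that the mouse clock can run without, lies on the minus strand at chr4:150997018-151044707. Per3 in SN/VTA measured 7.32 and 7.19 at ZT3, 7.53 and 7.63 at ZT7, 7.95 and 7.95 at ZT11, 7.74 and 7.66 at ZT15, 7.56 and 7.59 at ZT19, and 7.43 and 7.38 at ZT23. PFC arrays of Per3 measured 7.59 and 7.53 at ZT3, 7.93 and 7.94 at ZT7, 8.11 and 8.18 at ZT11, 8.17 and 8.13 at ZT15, 8.03 and 8.06 at ZT19, and 7.71 and 7.81 at ZT23. The pairs lay close together here, with a spread between pools of 0.05 in SN/VTA and 0.04 in PFC (SD). For STR the Per3 levels were 7.63 and 7.75 at ZT3, 7.83 and 7.72 at ZT7, 8.25 and 8.33 at ZT11, 8.08 and 8.15 at ZT15, 7.77 and 8.07 at ZT19, and 7.64 and 7.53 at ZT23. For HAB the Per3 levels were 7.68 and 7.84 at ZT3, 8.13 and 8.12 at ZT7, 8.31 and 8.27 at ZT11, 8.36 and 8.30 at ZT15, 8.24 and 8.24 at ZT19, and 7.78 and 8.07 at ZT23. The 2 STR arrays at ZT19 and the 2 HAB arrays at ZT23 were the pairs that differed most, by 0.30 and 0.29. Amplitudes of Per3 were 0.29 ± 0.04 in SN/VTA (adjusted p = 0.0401 in limma), 0.29 ± 0.04 in PFC (0.0177), 0.33 ± 0.05 in STR (0.176) and 0.28 ± 0.04 in HAB (0.221), and the first 2 passed. No pair of tissues differed in the Per3 amplitude by more than 0.05, and the interval of SN/VTA minus PFC was -0.12 to 0.12. The SN/VTA call was lost with each array but the second ZT15 array left out (adjusted p from 0.0597 to 0.122 in limma) and with replicate number as a block (0.0671). In PFC it was lost without the first ZT3 array (0.0541), the second ZT3 array (0.0742), the second ZT11 array (0.0592) or the first ZT15 array (0.0580).

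**Figure D3:**
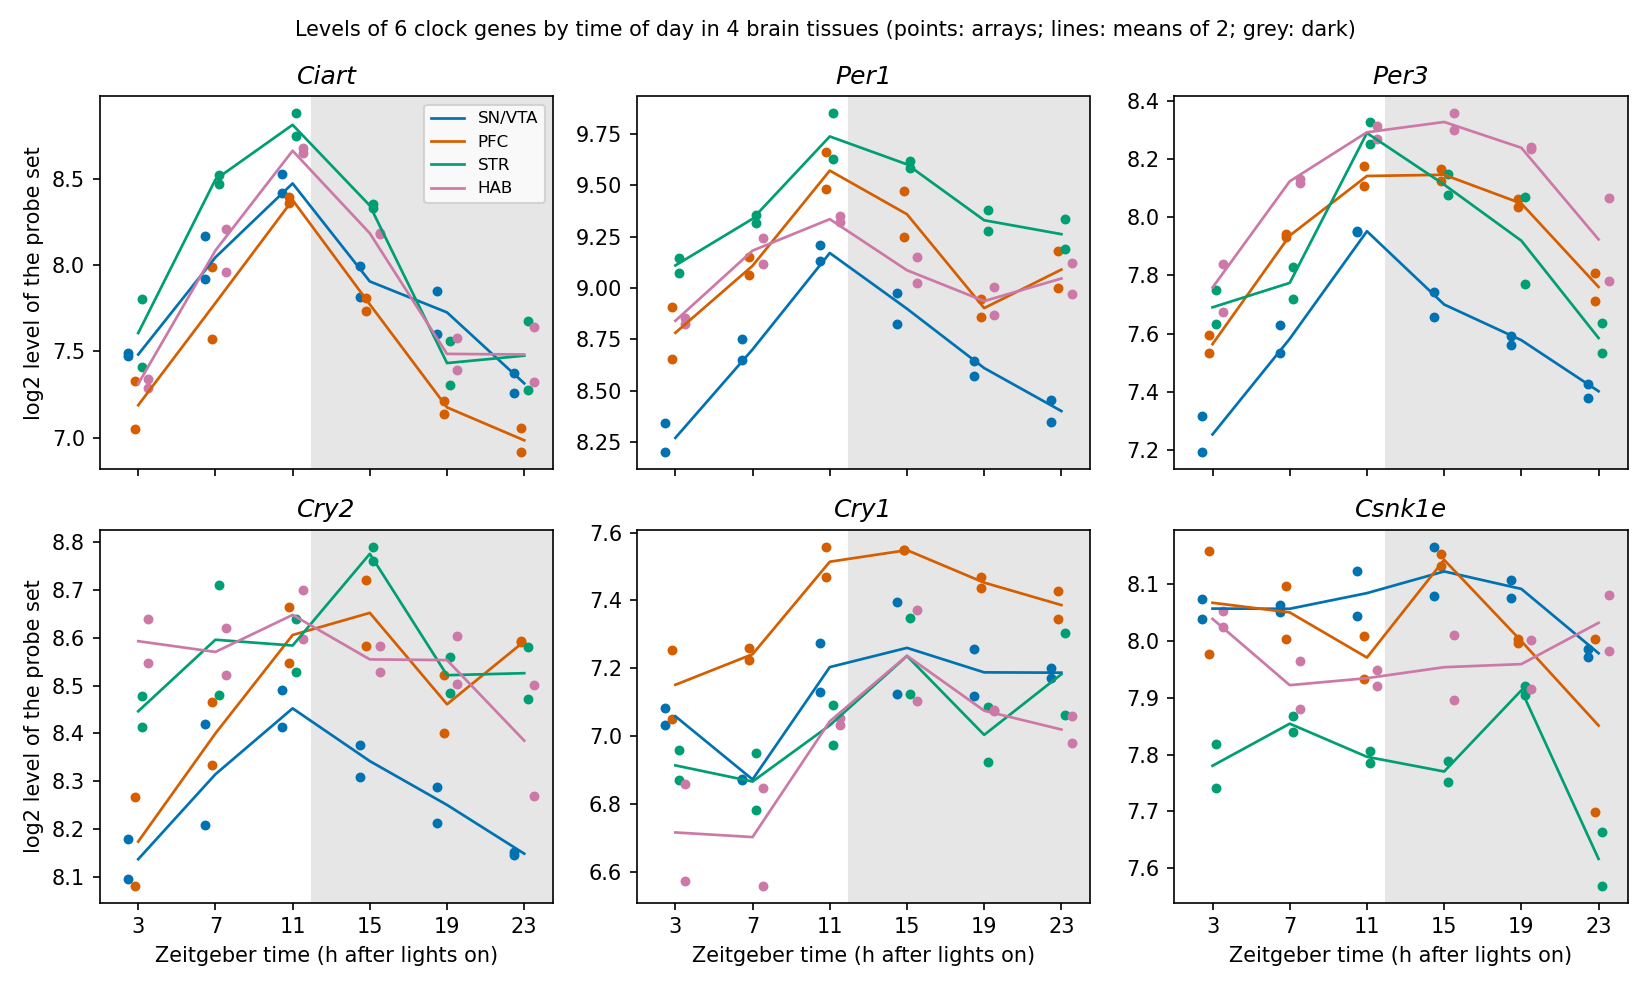
Log2 level of each gene (y axis) by ZT (x axis, h after lights on) in the 4 tissues, with 1 point per array, lines through the means of 2 arrays and the dark in grey. Ciart, Per1 and Per3 rise towards ZT11 or ZT15 in all 4 tissues, the Cry1 lines are highest at ZT15, and the Csnk1e lines show no common course.

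Cry1 and Cry2 encode cryptochromes, the proteins that block CLOCK and BMAL1 most strongly, and Cry1 was the late gene of the pair. Cry1 lies on the minus strand at chr10:85131700-85185054. Cry1 in SN/VTA came to 7.08 and 7.03 at ZT3, 6.87 and 6.88 at ZT7, 7.13 and 7.28 at ZT11, 7.40 and 7.12 at ZT15, 7.26 and 7.12 at ZT19, and 7.17 and 7.20 at ZT23. PFC gave Cry1 levels of 7.25 and 7.05 at ZT3, 7.22 and 7.26 at ZT7, 7.47 and 7.56 at ZT11, 7.55 and 7.55 at ZT15, 7.47 and 7.44 at ZT19, and 7.35 and 7.43 at ZT23. ZT15 had the highest mean in both, and the lowest mean fell at ZT7 in SN/VTA and at ZT3 in PFC. STR gave Cry1 levels of 6.87 and 6.96 at ZT3, 6.78 and 6.95 at ZT7, 6.97 and 7.09 at ZT11, 7.12 and 7.35 at ZT15, 6.92 and 7.08 at ZT19, and 7.30 and 7.06 at ZT23. HAB gave Cry1 levels of 6.86 and 6.57 at ZT3, 6.56 and 6.85 at ZT7, 7.05 and 7.03 at ZT11, 7.10 and 7.37 at ZT15, 7.08 and 7.07 at ZT19, and 7.06 and 6.98 at ZT23. Again ZT15 was highest and ZT7 lowest, though the paired HAB arrays at ZT3, ZT7 and ZT15 differed by 0.27 to 0.29. Cry1 passed in no tissue alone. Its amplitudes were 0.15 ± 0.04 in SN/VTA (adjusted p = 0.384 in limma), 0.19 ± 0.04 in PFC (0.134), 0.13 ± 0.06 in STR (0.667) and 0.26 ± 0.05 in HAB (0.498), with peaks from ZT15.5 ± 0.8 in PFC to ZT17.6 ± 1.6 in STR.

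Cry2, at chr2:92403646-92434085 on the minus strand, ranged from 8.10 through a median of 8.25 to 8.49 in SN/VTA, from 8.08 through 8.53 to 8.72 in PFC, from 8.41 through 8.54 to 8.79 in STR and from 8.27 through 8.56 to 8.70 in HAB. Its highest time mean fell at ZT11 in SN/VTA and HAB and at ZT15 in PFC and STR. The amplitudes of Cry2 ran from 0.09 ± 0.04 in HAB to 0.17 ± 0.06 in PFC, and adjusted p-values in limma from 0.132 in SN/VTA to 0.841 in HAB. Csnk1e, at chr15:79417852-79455579, ranged from 7.97 through 8.07 to 8.17 in SN/VTA, from 7.70 through 8.0 to 8.16 in PFC, from 7.57 through 7.80 to 7.92 in STR and from 7.88 through 7.97 to 8.08 in HAB. Its amplitude stayed between 0.05 ± 0.02 in SN/VTA and 0.06 ± 0.05 in PFC, and no adjusted p in limma was below 0.677. The kinase gene thus showed no 24-h course that this number of arrays could detect.

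Tissue by tissue, 3 of the 6 genes passed in SN/VTA (Ciart, Per1 and Per3), where 0.162% of all genes tested did. In PFC 2 passed (Ciart and Per3), against 0.179% of all genes. Ciart alone passed in STR and in HAB, where only 3 genes in all passed in each tissue, or 0.0174%. The test of whether a rhythm differs between the 4 tissues passed for 0 of the 6 genes, with adjusted p-values from 0.840 to 0.986 in limma and 0 genes at an unadjusted p below 0.05, while 0.0289% of all genes passed it. The missing calls in STR and HAB are therefore not shown to be missing rhythms. With 1 spread estimated over all 48 arrays, 3 of the 6 genes passed in each tissue, and of all genes 0.0984% passed in SN/VTA, 1.38% in PFC, 0.810% in STR and 0.284% in HAB. With an F test over the 6 times in place of the curve, 0 of the 6 passed in SN/VTA (0.0174% of all genes), 1 in PFC (0.0521%), 0 in STR (0%) and 1 in HAB (0.0174%).

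**Figure D4:**
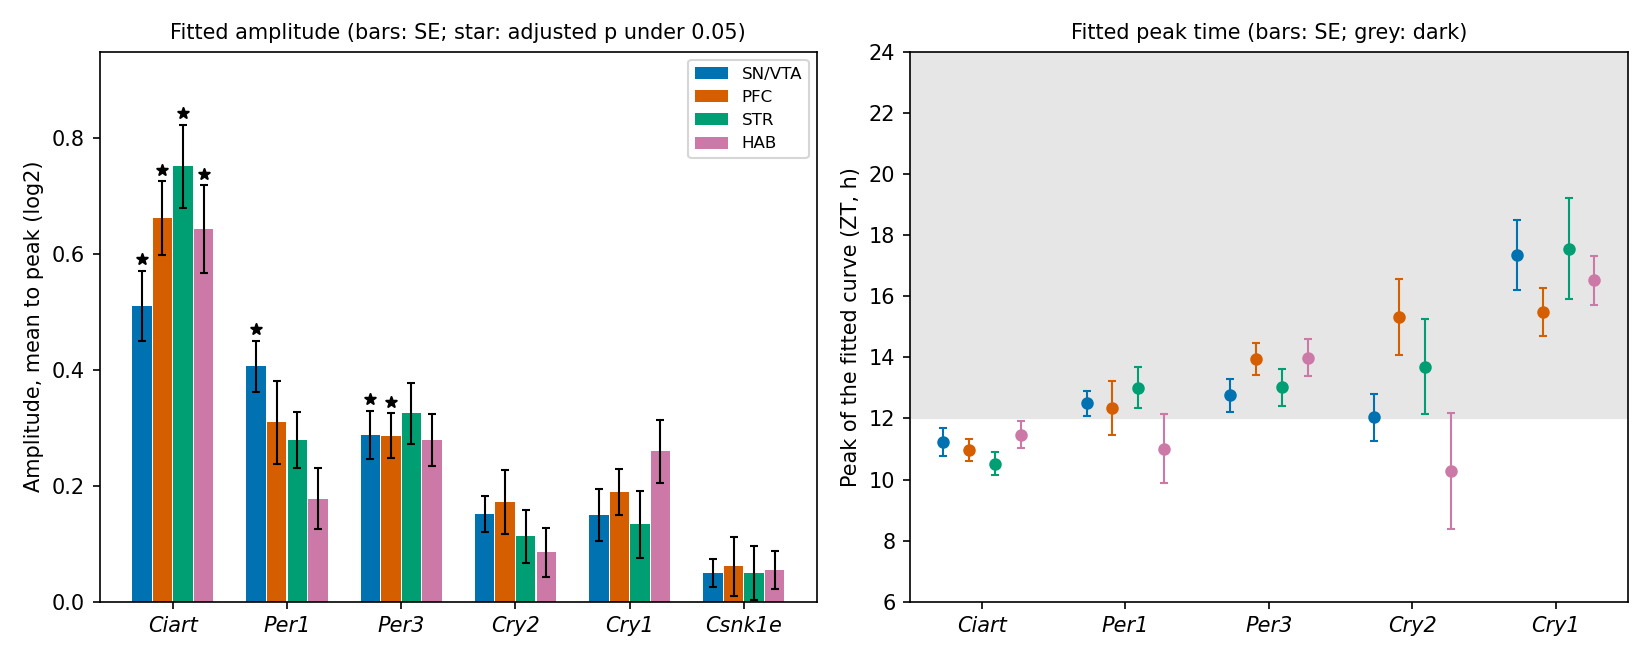
Left, amplitude from mean to peak of the fitted 24-h curve (y axis, log2) for each gene and tissue, with SE bars and a star for an adjusted p under 0.05; right, fitted peak time (y axis, ZT in h) with SE bars and the dark in grey, Csnk1e left out. Ciart bars lie between 0.51 and 0.75, and Per1 bars fall to 0.18 in HAB. The Cry1 peaks lie latest in every tissue, though in PFC at ZT15.5 against ZT15.3 for Cry2.

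In SN/VTA, habenula markers were lower at the times when the Period genes and Ciart were higher. The mean of that list (Chrna3, Chrnb4, Tac2 and Pou4f1, 4 of 4 measured) was 7.15 to 7.34 on the dusk arrays of SN/VTA (ZT11 and ZT15) and 7.41 to 7.56 on the dawn arrays (ZT23 and ZT3), against 9.80 to 10.42 in HAB itself. None of the 4 markers passed the rhythm test in SN/VTA (adjusted p from 0.570 to 0.786 in limma). Each of the 4 markers on its own overlapped between dusk and dawn. With the list mean as a covariate, a fit added after seeing the data, the amplitudes in SN/VTA were 0.39 for Ciart, 0.23 for Per1 and 0.16 for Per3, and the adjusted p-values in limma were 0.435, 0.451 and 0.799. Over all genes tested, 2 passed in this fit, against 28 without it. The list mean had a Pearson r of -0.94 with Per1, -0.90 with Per3 and -0.82 with Ciart in SN/VTA. A covariate this close takes up part of their course in any case, so this fit cannot separate the list from the time of day. The part of these markers in the result was not tested beyond this fit. Other marker lists also differed between dusk and dawn in SN/VTA without overlap. The tissue's own dopamine markers (Th, Slc6a3, Slc18a2 and Chrna6) averaged 10.16 to 10.40 at dusk and 10.61 to 10.65 at dawn, astrocyte markers 9.65 to 9.77 at dusk and 9.79 to 9.82 at dawn, and microglia markers, whose ranges nearly meet, 8.52 to 8.62 at dusk and 8.62 to 8.71 at dawn. Thalamus markers were the other way round, at 9.80 to 9.97 at dusk and 9.53 to 9.75 at dawn. The part of these lists in the result was not tested. In PFC, choroid plexus markers ran from 5.80 to 6.02 at dusk and from 5.96 to 6.18 at dawn. The list mean had a Pearson r in PFC of -0.75 with Per1, -0.74 with Cry2, -0.56 with Ciart and -0.38 with Per3. With Cry1 it was -0.31 and with Csnk1e -0.12. With that list as a covariate in PFC, a fit also added after seeing the data, no rhythm call of the 6 genes changed. Only Ciart and Per3 had a call there to lose. The part of this list in the PFC result was not tested beyond that fit. Of all genes, 34 passed in that fit, against 31 without the covariate. In HAB, where the choroid plexus list varied most, Ciart no longer passed with that list as a covariate (adjusted p = 0.0684 in limma). Its amplitude there was 0.64 both with and without the covariate.

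Setting dusk against dawn asks a narrower question with no assumed curve, by the mean of the 4 arrays of ZT11 and ZT15 minus that of the 4 arrays of ZT23 and ZT3. The contrast sees a peak near lights off best, and a later one such as that of Cry1 less well. Its spread came from all 48 arrays, while the curve in each tissue used 12. With 1 spread over 48 arrays, the curve also called Per1 in PFC (adjusted p = 0.00599 in limma) and in STR (0.0275). Higher at dusk were Ciart, Per1 and Per3 in SN/VTA, PFC and STR, and Ciart and Per3 in HAB. That is 3 of 6 genes in SN/VTA, where 0.0810% of all genes rose, 3 in PFC (0.712%), 3 in STR (0.110%) and 2 in HAB (0.104%). Ciart averaged 8.19 ± 0.34 at dusk and 7.40 ± 0.11 at dawn in SN/VTA (SD, n = 4 each), a difference of 0.79 ± 0.10 (SE). In PFC it averaged 8.07 ± 0.35 at dusk and 7.09 ± 0.17 at dawn, in STR 8.58 ± 0.28 at dusk and 7.54 ± 0.24 at dawn, and in HAB 8.42 ± 0.28 at dusk and 7.40 ± 0.16 at dawn, which is 2.04-fold there. The adjusted p in limma for Ciart was at most 5.84e-05 in any tissue. Every dusk array of Ciart and of Per3 lay above every dawn array of its tissue, in all 4 tissues.

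Per3 differed by 0.50 in SN/VTA, 0.48 in PFC, 0.56 in STR and 0.47 in HAB (dusk minus dawn, log2, SE 0.06 in each), with adjusted p-values in limma of 3.83e-05, 3.33e-05, 5.97e-06 and 1.28e-04. Per1 differed by 0.70 in SN/VTA, 0.53 in PFC and 0.48 in STR (SE 0.07 in each), where the dusk and dawn arrays did not overlap. In HAB the Per1 arrays ran from 9.02 to 9.35 at dusk and from 8.83 to 9.12 at dawn, which overlap, and the difference of 0.27 ± 0.07 did not pass (adjusted p = 0.199 in limma). Cry2 had no overlap in SN/VTA, with 8.31 to 8.49 at dusk and 8.10 to 8.18 at dawn, yet its difference of 0.25 ± 0.07 had an adjusted p of 0.221 in limma. Cry1 likewise had no overlap in PFC, with 7.47 to 7.56 at dusk and 7.05 to 7.43 at dawn, and missed the threshold (adjusted p = 0.130 in limma). The difference of Csnk1e was 0.09 in SN/VTA and -0.09 in HAB, and neither passed. Leaving out any 1 of the 8 arrays changed none of these counts.

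The repressor genes also differed in level between tissues, as most genes did: 75.1% of all genes tested passed for SN/VTA minus PFC, 75.9% for SN/VTA minus STR, 67.7% for SN/VTA minus HAB, 73.9% for PFC minus STR, 72.4% for PFC minus HAB and 70.4% for STR minus HAB. Of the 6 genes, 5 passed in each of the first 4 of these pairs, 3 for PFC minus HAB and 4 for STR minus HAB, counts of the same order as these shares. Per1 averaged 8.68 ± 0.32 in SN/VTA, 9.14 ± 0.29 in PFC, 9.40 ± 0.23 in STR and 9.07 ± 0.18 in HAB (SD over the 12 arrays of each, which includes the daily swing). STR was highest and SN/VTA lowest, with a difference of -0.72 ± 0.04 for SN/VTA minus STR (SE, adjusted p = 8.24e-16 in limma), and PFC and HAB did not differ past the threshold (0.157). Per3 averaged 7.58 ± 0.23 in SN/VTA, 7.93 ± 0.22 in PFC, 7.90 ± 0.27 in STR and 8.11 ± 0.23 in HAB. It was highest in HAB and lowest in SN/VTA, with -0.53 ± 0.04 for SN/VTA minus HAB (adjusted p = 8.84e-14 in limma), and PFC and STR did not differ past the threshold (0.349).

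Cry1 was highest in PFC, with 7.13 ± 0.15 in SN/VTA, 7.38 ± 0.16 in PFC, 7.04 ± 0.17 in STR and 6.97 ± 0.23 in HAB. PFC exceeded HAB by 0.42 ± 0.05 (adjusted p = 2.73e-09 in limma), SN/VTA exceeded HAB by 0.16 ± 0.05 (0.00281), and STR passed against neither SN/VTA (0.0820) nor HAB (0.157). Cry2 averaged 8.27 ± 0.13 in SN/VTA, 8.48 ± 0.18 in PFC, 8.57 ± 0.12 in STR and 8.55 ± 0.11 in HAB, with SN/VTA below each of the others (adjusted p at most 1.35e-05 in limma). Ciart averaged 7.82 ± 0.41 in SN/VTA, 7.55 ± 0.51 in PFC, 8.03 ± 0.58 in STR and 7.87 ± 0.51 in HAB, with STR highest and PFC lowest, and PFC minus STR was -0.48 ± 0.06 (adjusted p = 1.90e-08 in limma). SN/VTA and HAB did not differ past the threshold for Ciart (0.520). Csnk1e averaged 8.07 ± 0.05 in SN/VTA, 8.01 ± 0.12 in PFC, 7.79 ± 0.10 in STR and 7.97 ± 0.06 in HAB, and STR was lower than each of the others (adjusted p at most 9.31e-06 in limma).

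The tissue differences depend on how arrays are put on 1 scale. Centring each array on its median moved the median difference of all genes by 0.12 for SN/VTA minus PFC, 0.19 for SN/VTA minus STR and 0.14 for SN/VTA minus HAB. Under that scale Ciart was lost for SN/VTA minus STR (-0.02, adjusted p = 0.796 in limma) and STR minus HAB (0.103), Cry2 for SN/VTA minus PFC (0.0527) and PFC minus STR (0.587), while Cry1 passed for SN/VTA minus STR (a difference of 0.27, adjusted p = 7.64e-06), Csnk1e for SN/VTA minus PFC (0.17 in place of 0.05, adjusted p = 5.30e-05) and Per3 for PFC minus STR (0.11, adjusted p = 0.0121 in limma). Calls that held under it still moved in size: SN/VTA minus STR was -0.13 in place of -0.32 for Per3, -0.12 in place of -0.30 for Cry2 and 0.46 in place of 0.28 for Csnk1e. SN/VTA minus HAB was -0.26 in place of -0.40 for Per1, -0.14 in place of -0.28 for Cry2, 0.30 in place of 0.16 for Cry1 and 0.23 in place of 0.09 for Csnk1e, and SN/VTA minus PFC was -0.14 in place of -0.25 for Cry1. The Cry2 difference between PFC and STR, -0.09 ± 0.04, also missed the threshold when any of 8 arrays was left out alone (0.0539 to 0.0747), and Ciart between STR and HAB without the second ZT3 or the second ZT23 array of STR (adjusted p = 0.0548 and 0.0555 in limma). In the other direction, Cry1 passed for SN/VTA minus STR without the second ZT15 array of SN/VTA (0.0325), the second ZT15 array of STR (0.0417) or the first ZT23 array of STR (0.0379). Cry2 passed for PFC minus HAB without the second ZT3 array of PFC (0.0481) or the second ZT23 array of HAB (0.0343), and Csnk1e passed for it without the second ZT23 array of PFC (0.0450) and for SN/VTA minus PFC without the first (0.0192). After quantile normalization Csnk1e was lost for SN/VTA minus HAB (adjusted p = 0.145 in limma), while Cry1 passed for STR minus HAB (0.0167), Cry2 for PFC minus HAB (0.0458) and Csnk1e for PFC minus HAB (0.0139). That scale also gave 0.16 in place of 0.28 for Csnk1e in SN/VTA minus STR, -0.11 in place of -0.18 for Csnk1e in STR minus HAB, and -0.16 in place of -0.09 for Cry2 in PFC minus STR. With choroid plexus markers as a covariate, Csnk1e was lost for SN/VTA minus HAB (adjusted p = 0.106 in limma), Cry2 for PFC minus STR (0.0686) and Ciart for STR minus HAB (0.163). The tissue calls of Per1 and Per3 passed on both other scales, but their sizes moved. Per1 in SN/VTA minus STR was -0.53 after median centring and -0.84 after quantile normalization, in place of -0.72. Per1 in PFC minus STR was -0.19 and -0.35, in place of -0.26. Per3 in SN/VTA minus HAB was -0.39 and -0.56, in place of -0.53.

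**Figure D5:**
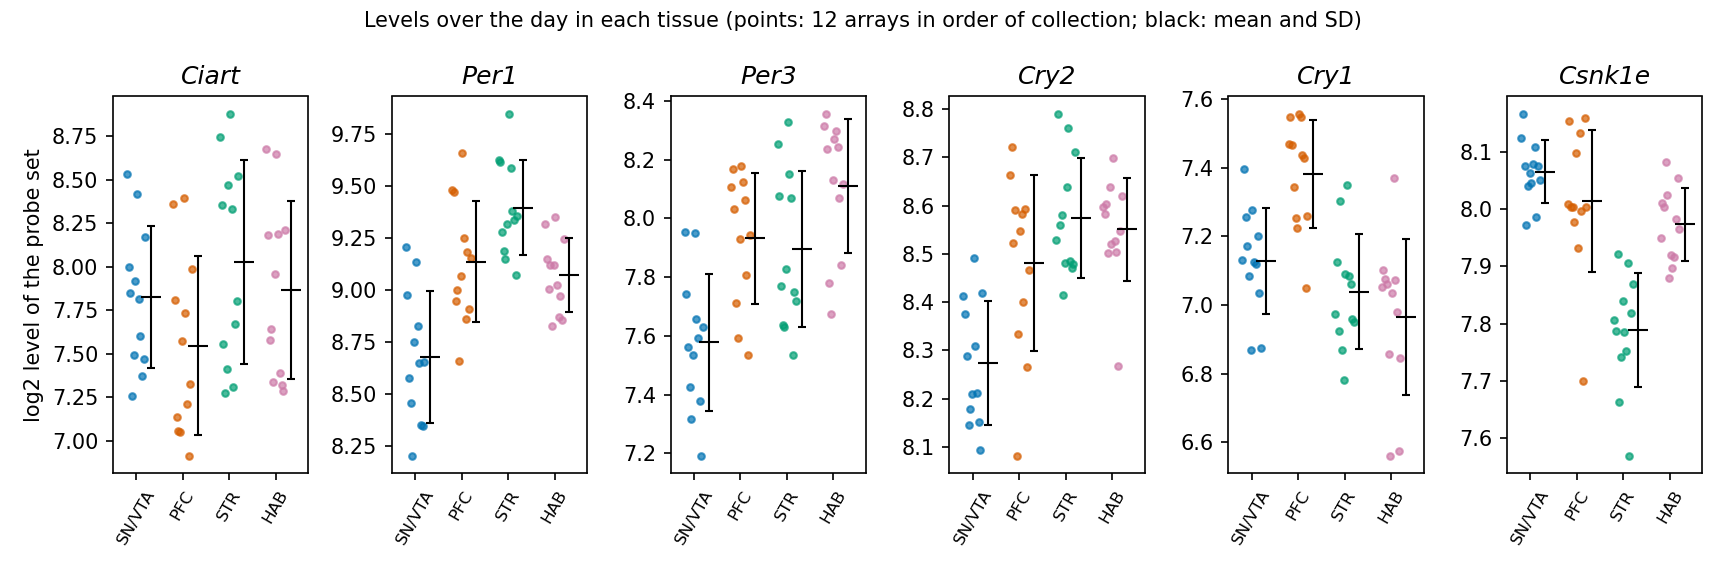
Log2 level of each gene (y axis) in the 4 tissues (x axis), with 1 point per array in order of collection and the mean and SD of 12 arrays in black. SN/VTA lies lowest for Per1, Per3 and Cry2, PFC highest for Cry1, and STR lowest for Csnk1e; the y axes differ between genes and are not comparable.

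No gene of the set differed in level between cycles past the threshold. For the second minus the first cycle, 0 of the 6 genes passed in limma in any tissue and 0 had an unadjusted p below 0.05, against 0% of all genes tested in SN/VTA, PFC and STR and 0.00579% in HAB. The largest difference of a member was 0.12 ± 0.09, for Ciart in STR. The second cycle alone gave Ciart amplitudes of 0.50 in SN/VTA, 0.70 in PFC, 0.72 in STR and 0.73 in HAB. The first cycle alone gave 0.54 in SN/VTA, 0.64 in PFC, 0.80 in STR and 0.57 in HAB. Fitted peaks of Ciart came at ZT10.5 in SN/VTA, ZT10.4 in PFC, ZT9.9 in STR and ZT11.1 in HAB in the second cycle, against ZT11.9, ZT11.6, ZT11.0 and ZT11.9 in the same tissues in the first cycle. They were earlier in the second cycle in 4 of 4 tissues, a difference that was not tested. Cry2 also peaked earlier in the second cycle when the tissues were fitted together, at ZT11.4 in the second cycle and ZT15.1 in the first. Per1 peaked at ZT12.5 in SN/VTA, ZT11.2 in PFC, ZT13.1 in STR and ZT10.0 in HAB in the second cycle, against ZT12.5 in SN/VTA, ZT13.2 in PFC, ZT12.9 in STR and ZT12.6 in HAB in the first cycle. These single-cycle amplitudes and peaks rest on 1 array per time and tissue, and no error was computed for them.

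Other clock genes, from lists given by role, moved at times around these repressors. In the shared fit 4 of 8 measured activators and nuclear receptors passed, 5 of 6 output factors, 5 of 21 kinases, phosphatases, ligases and co-factors, and 2 of 11 genes of CREB signalling and light input, beside 5.55% of all genes. Arntl, the partner of Clock, peaked at ZT23.5 ± 0.3 with an amplitude of 0.35 ± 0.03, about opposite in phase to Ciart. Nr1d1, which encodes the Arntl repressor REV-ERB alpha, peaked at ZT8.7 ± 0.3 with 0.45 ± 0.03, before any member of the set, and its relative Nr1d2 at ZT12.4 ± 0.3 with 0.28 ± 0.02. The D-box factor Dbp peaked at ZT11.6 ± 0.2 with 0.50 ± 0.03, and Nfil3, which represses through the same D-box, at ZT24.0 ± 0.7 with 0.13 ± 0.02. The peaks of Bhlhe41, an E-box repressor, and Usp2, a deubiquitinase, came at ZT11.3 ± 0.5 and ZT10.9 ± 0.4. Adjusted p-values in limma for these genes were at most 0.00144. The median amplitude was 0.10 for activators and nuclear receptors, 0.17 for output factors, 0.03 for kinases and co-factors and 0.05 for CREB and light input, against 0.04 for all genes tested.

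Within single tissues, Nr1d1 and Dbp passed in all 4, Nr1d2 and Usp2 in SN/VTA and PFC, and Arntl in PFC, and of these lists Nr1d1 alone passed the test of a rhythm that differs between tissues (adjusted p = 0.00606 in limma). Sgk1 and Tsc22d3, which respond to glucocorticoids, were the 2 called genes of the CREB and light list and peaked at ZT11.9 ± 0.6 and ZT13.5 ± 0.6. Among the kinase genes of the clock beside Csnk1e, Csnk1a1, Csnk2a1 and Gsk3b did not pass in the shared fit, while 5 of the 21 genes measured of their list did.

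Likeness between genes was measured by Pearson's r of log2 levels over the 48 arrays after each gene's tissue means were taken out, as a description, since arrays of a time share their time of day. Ciart was most like Dbp (0.89), Nr1d2 (0.82) and Per1 (0.79), and least like Arntl (-0.87) and Hnrnpc (-0.77). For Per1 the closest genes were Dbp (0.81), Ciart (0.79) and Hif3a, a subunit of a hypoxia-inducible factor (0.78), and for Per3 they were Hif3a, Per1 and Nr1d2 (0.77 each). The most opposed genes were Mmp14 (-0.77), a matrix metalloproteinase, and Arntl (-0.73) for Per1, and Fabp7 (-0.77), which binds fatty acids in astrocytes, and Arntl (-0.74) for Per3. The closest genes of Cry1 were Spry4, an inhibitor of growth factor signalling (0.76), Mfsd2a, a lipid transporter of the blood-brain barrier (0.73) and Plekhm1 (0.71). Fabp7 was the most opposed gene for Cry1 as well (-0.69), followed by Lpcat3 (-0.68). Cry2 came closest to Per1 (0.68), Dbp (0.65) and Zfp354c (0.63), and was most opposed to Ostf1 and Hipk4 (-0.54 each). Csnk1e stood nearest to Tbc1d22b (0.64), whose r with it was 0.24 within SN/VTA and 0.87 within HAB, and then to Hp1bp3 and Slc45a1 (0.58 each), with Foxh1 (-0.54) and Trim63 (-0.53) most opposed, and none of these 5 genes is on the clock lists.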

How the data were processed

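RNA of 4 mouse brain tissues was measured on 48 arrays. The deposited values were read as log2 levels of probe sets because they run from 1.09 to 13.65 with medians near 6, and what the authors did for background correction, summarisation and normalization is not given in the sources used here. Per the labels, RNA was isolated with RNeasy columns, pooled from 3 mice per array and labelled with the WT Pico kit. No detection calls were used.

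Of 41345 rows, 23521 had 1 gene symbol in the platform annotation, 1814 several and 16010 none here. The highest-mean row was kept for each of 22180 genes, and the 17274 with a mean of at least 5.05, the 30th percentile of all rows, were tested. Entrez identifiers tied the 6 genes to RefSeq (GRCm38.p6).

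Tests used R 4.3.3 with limma 3.58.1 (lmFit, eBayes) and the data.table package, version 1.17.8, with Benjamini-Hochberg adjustment across all genes tested and a threshold of 0.05. A rhythm was called by an F test of both terms of a 24-h cosine curve, per tissue over 12 arrays or over 48 arrays with tissue as a term, and its difference between tissues the interaction. Tissue and dusk contrasts came from a model of 24 groups. Intervals of peak times used the joint residual covariance of both genes and counted every array as independent. The fits were also run on simulated data with independent noise and pure 24-h cosine curves. Those data held no departures from the curve and no effect shared by the tissues of a time, so they do not bear on these. Motifs were searched in Python 3.11.15, and figures were drawn with matplotlib 3.10.9.

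The members, lists and tests were chosen with earlier results of these data known. Named genes were all 6 members, other clock genes by list where called, and the 3 closest and 2 most opposed genes of each member. Csnk1a1, Csnk2a1 and Gsk3b were picked from their list after their values were seen.

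Replicate number marks the 24-h cycle in the titles. Deviations from group means of arrays with the same number correlated with a mean r of 0.07 in SN/VTA, -0.02 in PFC, 0.00 in STR and 0.09 in HAB over 15 pairs each. On these means the number was not used as a block in the tests above, and fits with it were run as alternatives. Single pairs reached 0.30 in SN/VTA and 0.41 in HAB. Over 0.1 lay 5 of 15 pairs in SN/VTA, 7 in HAB and 1 each in PFC and STR.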

Additional observations from a re-analysis of the deposited data

How the results depend on the processing

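The count of genes with a rhythm shared by the tissues was 5 under each alternative run for it, with the exception of the first cycle alone, the second alone and the 12 means over tissues, where it was 4 without Cry2. Counts for dusk against dawn, second against first cycle and the difference of rhythms kept their counts within 1.5 times under theirs. Counts of rhythms within single tissues moved. In SN/VTA 0 of the 6 genes passed with an F test over the 6 times and 0 with habenula markers as a covariate, and 1 to 3 with 1 array left out, with 1 without the ZT11 array of either cycle or the first ZT23 array. In PFC the count was 1 with the F test, 3 with 1 spread and 1 to 2 with 1 array left out. In STR it was 0 with the F test, 3 with trend and robust priors and 3 with 1 spread over 48 arrays. In HAB it was 0 with no filter, 0 with replicate number as a block, 0 with choroid plexus markers as a covariate, 3 with 1 spread and 0 to 1 with 1 array left out. For PFC against HAB the count of differing genes was 5 after quantile normalization. Over all genes tested, alternatives other than leaving out an array called from 2 to 167 genes in SN/VTA (28 in the fit reported), 9 to 239 in PFC (31), 0 to 140 in STR (3), 2 to 49 in HAB (3) and, for the shared rhythm, as few as 133 in means over tissues, 199 in the first cycle and 70 in the second (958). For dusk against dawn in STR quantile normalization called 46 (28), and for a rhythm that differs between tissues the range was 3 to 8 (5).

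With replicate number as a block, Per3 in SN/VTA (adjusted p = 0.0671 in limma) and Ciart in HAB (0.0682) were lost, and no other call changed in the paired fits. The arrays share only this number, which marks the cycle. Per3 in SN/VTA was also lost with each array centred on its median (0.0629) and with no filter (0.0871). Collection time as a random block changed no call of the 6 genes. The mean of all rows of a gene leaves their values as they are, since each has 1 row, and tests nothing for them. No called result reversed, while uncalled tissue differences changed sign after median centring for Ciart in SN/VTA minus HAB (0.10) and Cry2 in STR minus HAB (-0.02) and after quantile normalization for Csnk1e in SN/VTA minus PFC (-0.04), as did some uncalled differences between cycles. The cause of these changes was not tested. Signal over background is unknown here.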
